A study of Mus musculus with 32 samples.

Results

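Macrophages and monocytes are the phagocytes that enter injured muscle, and 32 genes that mark them, of 55487 in the deposited tables, were followed through sorted muscle progenitors. The genes were taken by name from the tables: leukocyte and macrophage surface genes, Fc and innate receptors with their adaptors, the complement C1q chains, monocyte genes, phagocyte lysosome genes, genes of repair macrophages, genes of alternative activation, and oxidase and leukotriene genes. All 32 were found. They were read in 32 libraries of 2 sorted cell types, satellite cells, the stem cells of muscle, and fibro-adipogenic progenitors (FAPs), its interstitial mesenchymal cells. Both came from the supraspinatus, a muscle of the rotator cuff, of wild-type C57BL/6J mice that the labels give as male and 12 weeks old.

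All muscles, controls included, had been injected with cardiotoxin, a snake venom toxin that kills muscle fibres. One muscle of each mouse then also received interscapular brown adipose tissue (BAT) from a donor 3 weeks old, and its control had the injury alone. Cells were taken at day 3 or day 7, with 4 mice per day, which gave 8 groups of 4 libraries. Per the labels the gate was CD45-, CD31- and Sca1+, with integrin alpha 7 on satellite cells and not on FAPs. The sort thus set out to leave out leukocytes, whose common surface phosphatase CD45 is encoded by Ptprc. The library that carries no replicate number in the labels is named replicate 4 in each group.

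After muscle injury, monocytes with the receptor Ccr2 follow the chemokines Ccl2 and Ccl7 out of the blood and become macrophages. These first clear debris and later turn to a repair state, with the lipid receptor Trem2, the glycoprotein Gpnmb and the secreted phosphoprotein Spp1 (osteopontin). Growth and survival of the lineage depend on the receptor Csf1r, and much of its gene programme on the transcription factor PU.1, encoded by Spi1. Several of the 32 genes are also used outside the lineage, so that a transcript alone does not name the cell it came from.

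Total counts were 19.8 M to 37.4 M in 31 libraries and 46.4 M in control satellite cell replicate 2 of day 3. Levels are in CPM, a gene's counts scaled to a library total of 1 M. A gene with 0 counts could be at up to 3 counts, which is 0.0647 to 0.152 CPM depending on depth and covers counting error only. Pax7, the satellite cell regulator, was at 21 to 164 CPM in satellite cells and at most 1.20 CPM in FAPs. Pdgfra, which marks FAPs, was at 251 to 436 CPM in FAPs and at most 19.1 CPM in satellite cells. Ly6a, which encodes Sca1, had a median of 712 CPM in FAPs and only 5.56 CPM in satellite cells, although both gates are labelled Sca1+. In the 4 libraries of the mouse of replicate 3 at day 7, the female transcript Xist was at 163 to 355 CPM and the Y-linked Ddx3y at 0, against Xist of at most 0.161 CPM and Ddx3y of at least 29.1 CPM in the other 28. Labels call all mice male.

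The promoters of 6 members are shown because they stand for the patterns described here: C1qb, Trem2 and Ctss were high in the same few libraries, Mgl2 was in all satellite cell libraries, and Spp1 and Gpnmb were in every library. Each is the 250 bases before the RefSeq start of the gene (GRCm38.p6), 5′ to 3′ on the gene's strand. Capitals mark GAGGAA, the core of the box that PU.1 binds, or its reverse complement TTCCTC, and the E-box CAGCTG, which reads alike on both strands.
C1qb, chr4:136886201-136886450, minus strand: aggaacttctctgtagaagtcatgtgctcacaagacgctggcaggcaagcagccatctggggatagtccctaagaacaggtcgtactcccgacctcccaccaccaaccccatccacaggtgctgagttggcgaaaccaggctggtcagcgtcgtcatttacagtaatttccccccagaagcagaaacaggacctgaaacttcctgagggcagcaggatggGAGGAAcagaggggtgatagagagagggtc
Trem2, chr17:48346151-48346400, plus strand: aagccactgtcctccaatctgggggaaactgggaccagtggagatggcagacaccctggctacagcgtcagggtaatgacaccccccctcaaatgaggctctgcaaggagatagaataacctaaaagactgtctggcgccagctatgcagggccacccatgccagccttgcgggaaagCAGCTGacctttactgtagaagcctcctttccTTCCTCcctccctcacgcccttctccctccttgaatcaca
Ctss, chr3:95526536-95526785, plus strand: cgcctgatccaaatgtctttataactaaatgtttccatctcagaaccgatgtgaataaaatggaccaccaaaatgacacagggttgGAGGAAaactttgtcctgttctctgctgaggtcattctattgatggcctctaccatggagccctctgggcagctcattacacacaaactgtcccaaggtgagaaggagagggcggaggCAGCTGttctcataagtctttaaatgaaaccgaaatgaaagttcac
Mgl2, chr11:70130107-70130356, plus strand: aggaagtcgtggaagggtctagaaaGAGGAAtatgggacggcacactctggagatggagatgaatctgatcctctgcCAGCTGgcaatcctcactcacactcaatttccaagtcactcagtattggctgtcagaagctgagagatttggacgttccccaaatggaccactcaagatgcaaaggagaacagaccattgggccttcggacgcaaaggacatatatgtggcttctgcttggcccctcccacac
Spp1, chr5:104434861-104435110, plus strand: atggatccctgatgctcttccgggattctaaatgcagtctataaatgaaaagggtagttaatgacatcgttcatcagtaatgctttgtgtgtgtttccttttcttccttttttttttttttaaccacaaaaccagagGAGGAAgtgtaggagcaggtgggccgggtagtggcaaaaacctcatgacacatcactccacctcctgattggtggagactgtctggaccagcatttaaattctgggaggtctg
Gpnmb, chr6:49036268-49036517, plus strand: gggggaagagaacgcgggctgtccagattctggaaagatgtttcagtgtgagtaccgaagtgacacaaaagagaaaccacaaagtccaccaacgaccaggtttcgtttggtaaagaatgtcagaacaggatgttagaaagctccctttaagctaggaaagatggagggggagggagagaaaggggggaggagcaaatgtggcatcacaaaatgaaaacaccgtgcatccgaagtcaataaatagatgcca

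Of the 32 members 23 have an entry in the RefSeq promoter table. GAGGAA on either strand was in 16 of these 23 windows, and in 23.3% of all 32851 windows of the same length. CAGCTG was in 7 of 23, against 13% of all windows, and TGACTCA, the AP-1 site (searched on both strands, that is also as TGAGTCA), in 1 of 23 against 4.46%. The windows of C1qb, Trem2, Ctss, Mgl2 and Spp1 shown here hold GAGGAA, and that of Gpnmb holds none of the 3 motifs. A match describes letters in a window and is no evidence of binding.

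The summed level of the 32 members was far higher in 3 day 3 libraries than in the others of their groups. It was 10015 CPM in BAT FAP replicate 1, which is 1.00% of all counts, 4575 CPM in BAT satellite cell replicate 4 and 4574 CPM in control satellite cell replicate 3. The other 6 satellite cell libraries of day 3 held 942 to 1399 CPM and the other 7 FAP libraries 257 to 1029 CPM. At day 7 the sum was 240 to 551 CPM in satellite cells and 203 to 1313 CPM in FAPs. These 3 libraries are called macrophage-rich below, a name taken from the values themselves, so they are described and not tested as a group. Per the mouse codes, 2 of them, BAT FAP replicate 1 and BAT satellite cell replicate 4, came from the transplanted muscle of the same mouse, while control satellite cell replicate 3 came from a mouse with no code in the labels.

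**Figure D1:**
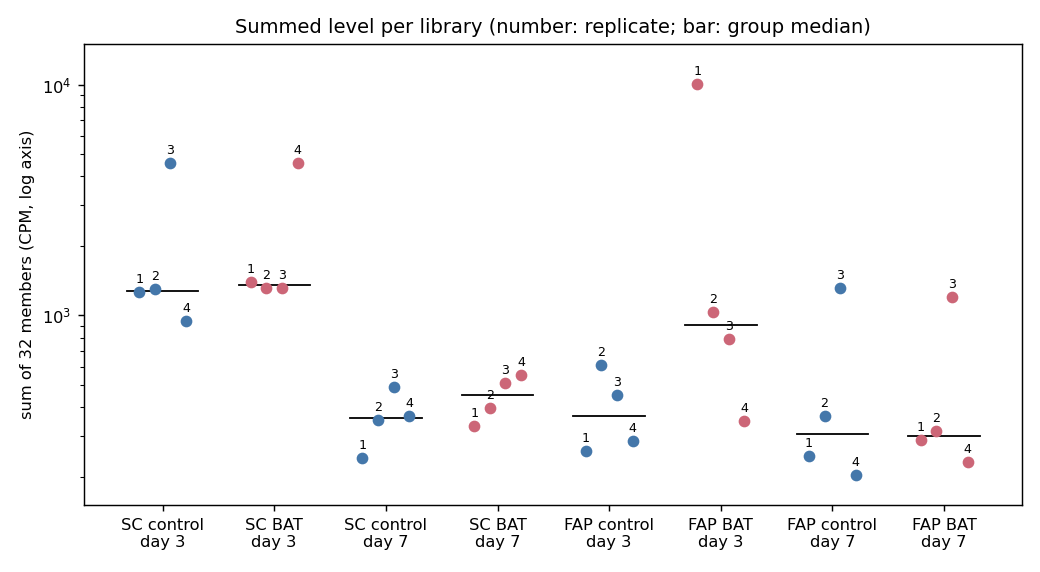
Sum of the 32 members in CPM (log axis) for each library, by group; blue is control, red is BAT, numbers are replicates and bars group medians. The highest points are BAT FAP replicate 1 (10015 CPM), BAT satellite cell replicate 4 (4575 CPM) and control satellite cell replicate 3 (4574 CPM), all at day 3.

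The group means carry these libraries. Control satellite cells of day 3 had a mean sum of 2019 ± 1711 CPM (SD, n = 4), and 1168 ± 196 CPM (n = 3) without replicate 3. For BAT satellite cells of that day the mean was 2152 ± 1616 CPM, and 1345 ± 47.0 CPM (n = 3) without replicate 4. BAT FAPs had 3045 ± 4655 CPM, and 722 ± 345 CPM (n = 3) without replicate 1, against 400 ± 163 CPM (n = 4) in control FAPs. At day 7 the means were 362 ± 102 CPM in control and 447 ± 101 CPM in BAT satellite cells, and 532 ± 525 and 509 ± 463 CPM in control and BAT FAPs (n = 4 each). Without replicate 3 the FAP means of day 7 were 272 and 278 CPM (n = 3 each).

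Without the 4 members that were in every library (Spp1, Gpnmb, Lyz2 and Cd14) the contrast was wider. The remaining 28 members then summed to 3043, 1197 and 1077 CPM in the 3 macrophage-rich libraries, in the order given above. In the other 29 libraries the same sum ran from 7.77 CPM in control FAP replicate 4 of day 3 to 132 CPM in BAT satellite cell replicate 2 of day 3. In a bulk library, fewer macrophages and less of the transcript per macrophage cannot be told apart.

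Within its group, nearly every member was highest in the macrophage-rich library. All 32 members were above the other 3 libraries of the group in BAT FAP replicate 1, and 31 of 32 in each of the 2 satellite cell libraries, where Mgl2 was the exception. The fold over the median of the other 3 libraries, for members whose median there was over 3 counts, had a median of 83.7 in BAT FAP replicate 1 (26 members), 35.7 in control satellite cell replicate 3 (26 members) and 24.8 in BAT satellite cell replicate 4 (29 members). The folds ran from 3.77 for Ly6c2 to 561 for Adgre1 in BAT FAP replicate 1. In control satellite cell replicate 3 they ran from 1.04 for Mgl2 to 119 for Msr1, and in BAT satellite cell replicate 4 from 0.813 for Mgl2 to 91.6 for Itgam.

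**Figure D2:**
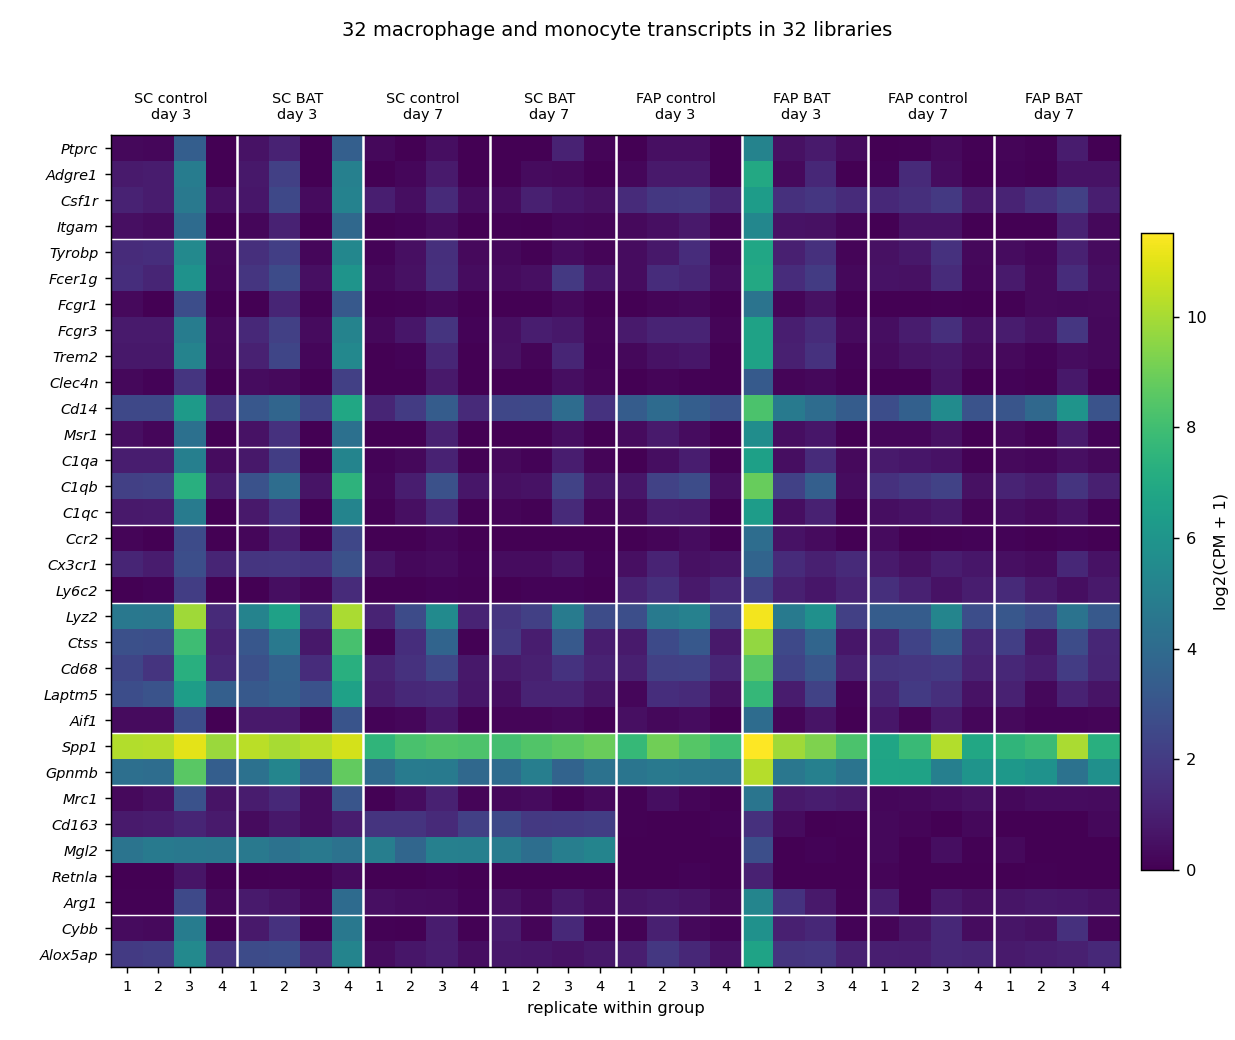
Level of each member (rows, by role) in each library (columns, by group and replicate) as log2(CPM + 1). The columns of control satellite cell replicate 3, BAT satellite cell replicate 4 and BAT FAP replicate 1 of day 3 are bright for nearly all 32 members, while the rows of Spp1, Gpnmb, Cd14 and Lyz2 are above 0 in every column and that of Mgl2 in all satellite cell columns.

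Surface genes of the lineage were low outside the macrophage-rich libraries. Ptprc was at 34.0 CPM in BAT FAP replicate 1, 10.3 CPM in BAT satellite cell replicate 4 and 9.905 CPM in control satellite cell replicate 3, and at 0 to 1.18 CPM in the other 29 libraries. Adgre1, which encodes the macrophage antigen F4/80, was at 123, 30.95 and 27.5 CPM in the same order, and at most 3.59 CPM elsewhere. Itgam, the integrin chain CD11b, was at 39.2, 14.0 and 15.2 CPM, with 1.18 CPM as the highest other value. The Ptprc values are from cells sorted as CD45-.

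Csf1r differed from these in that it had counts in every library of both cell types. Its levels were 82.8, 33.1 and 24.5 CPM in the 3 macrophage-rich libraries, in the same order. In the other 15 FAP libraries Csf1r was at 0.786 to 3.55 CPM, and in the other 14 satellite cell libraries at 0.2675 to 4.585 CPM. Its gene model overlaps Hmgxb3 on the opposite strand.

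Receptors and their signalling adaptors were high in the same libraries. Tyrobp and Fcer1g, the adaptors through which Trem2 and the Fc receptors signal, reached 111 and 122 CPM in BAT FAP replicate 1, 39.1 and 60.9 CPM in BAT satellite cell replicate 4, and 42.0 and 56.7 CPM in control satellite cell replicate 3. Outside these the highest values, both in BAT satellite cell replicate 2 of day 3, were 3.40 CPM for Tyrobp and 5.14 CPM for Fcer1g. Trem2 was at 98.2, 40.4 and 34.5 CPM in the 3 libraries and at most 4.31 CPM in the rest.

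The Fc gamma receptors Fcgr3 and Fcgr1 were at 98.3 and 20.6 CPM in BAT FAP replicate 1, at 34.6 and 8.41 CPM in BAT satellite cell replicate 4 and at 27.7 and 5.63 CPM in control satellite cell replicate 3. The scavenger receptor Msr1 was at 49.2, 18.2 and 18.0 CPM there and at most 2.09 CPM elsewhere. The C-type lectin Clec4n, lower throughout, was at 8.65, 3.57 and 2.38 CPM and nowhere else above 0.721 CPM. Cd14, the co-receptor for bacterial lipopolysaccharide, was at 306, 115 and 77.0 CPM in these libraries, but unlike the others it was at 1.26 CPM or more in all 29 others.

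The C1q chains start the classical complement pathway and in tissues come mostly from macrophages. Their 3 genes lie side by side on chromosome 4 (C1qb at chr4:136880129-136886187, C1qc at chr4:136889804-136893065 and C1qa at chr4:136895917-136898803, mm10, GENCODE M21). C1qb was at 452, 174 and 151 CPM in the 3 macrophage-rich libraries and at 0.136 to 16.4 CPM in the other 29. C1qa was at 91.0, 36.2 and 30.5 CPM, and C1qc at 81.6, 35.5 and 26.6 CPM. C1qb was the highest of the 3 chains in all 3 libraries, also per kilobase of exon.

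Monocyte genes were low even in the macrophage-rich libraries. Ccr2, the receptor that draws monocytes from the blood, was at 16.55, 4.48 and 5.27 CPM there and at most 0.9635 CPM in the other 29. Ly6c2, the antigen of inflammatory monocytes, was at 3.74, 1.67 and 3.28 CPM, against 0.365 to 1.97 CPM in the other FAP libraries and 0 to 0.325 CPM in the other satellite cell libraries. The fractalkine receptor Cx3cr1 was at 12.1, 6.21 and 5.90 CPM, and 0.0851 to 2.52 CPM in the rest. The Cx3cr1 model overlaps 7 other genes, among them the muscle gene Xirp1 on the same strand, so that its counts are uncertain.

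Lysozyme and lysosomal genes were among the highest members. Lyz2, myeloid lysozyme (chr10:117277331-117282321), was at 2530 CPM in BAT FAP replicate 1, 1058 CPM in BAT satellite cell replicate 4 and 953 CPM in control satellite cell replicate 3, and at 1.23 to 96.8 CPM in the other 29. Ctss, the cathepsin that trims the invariant chain of class II molecules, was at 792, 290.3 and 244 CPM, and at most 24.25 CPM elsewhere. Cd68, a lysosomal membrane protein, was at 368, 151 and 152 CPM, and at most 11.1 CPM elsewhere. Aif1, the actin-bundling protein Iba1, was at 15.7, 7.001 and 5.71 CPM, with all 29 others under 1 CPM.

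Of the oxidase and leukotriene genes, Cybb, the catalytic subunit of the phagocyte NADPH oxidase, was at 55.4, 23.1 and 27.9 CPM in the 3 libraries and at most 2.09 CPM elsewhere. Alox5ap, which presents arachidonic acid to 5-lipoxygenase, was at 101, 36.2 and 41.3 CPM. Among genes of alternative activation, the mannose receptor Mrc1 was at 21.15, 7.13 and 6.58 CPM and the arginase Arg1 at 36.3, 15.4 and 4.83 CPM. Retnla, a secreted product of alternatively activated macrophages, stayed at 1.09, 0.264 and 0.555 CPM in the 3 libraries and at most 0.122 CPM elsewhere.

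The relative amounts of the members were alike in the 3 macrophage-rich libraries. The excess of a member was taken as its level minus the median of the other 3 libraries of its group, and 28 members had an excess of 2 CPM or more in all 3. Across these 28 members the log2 excess correlated between libraries with r of 0.982, 0.987 and 0.993. These are descriptions across genes that span a wide range of levels, and genes are not independent replicates. The ratio of the excess in BAT FAP replicate 1 to that in BAT satellite cell replicate 4 had a median of 2.69, with the central 50% of members between 2.47 and 2.95, from 2.06 for Fcer1g to 4.515 for Spp1. Control satellite cell replicate 3 held 0.884 times the excess of BAT satellite cell replicate 4 at the median, from 0.322 for Arg1 to 1.83 for Spp1.

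**Figure D3:**
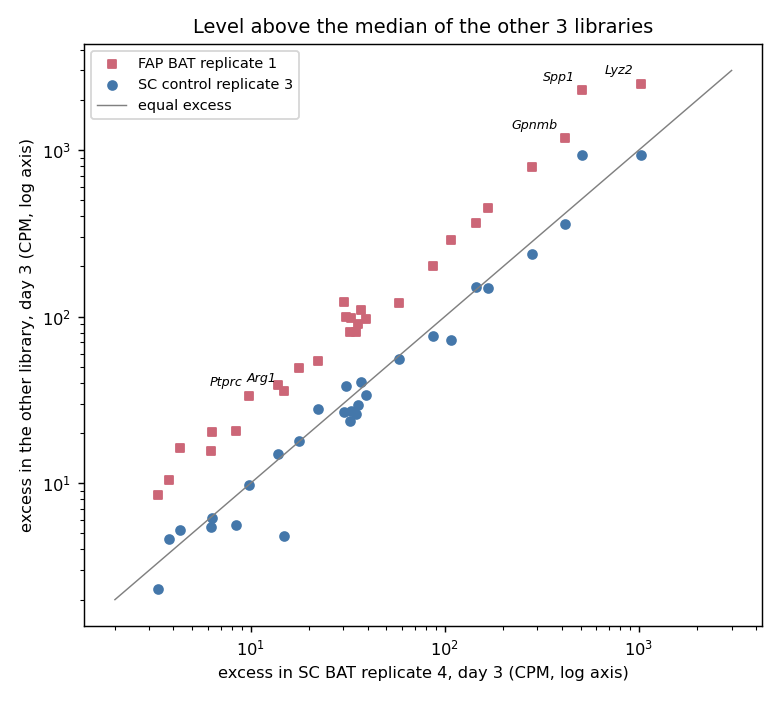
Excess of 28 members over the median of the other 3 libraries of the group, in CPM on log axes: BAT satellite cell replicate 4 on the x axis, BAT FAP replicate 1 (squares) and control satellite cell replicate 3 (circles) on the y axis, with a line of equal excess. The squares run parallel to the line at a median ratio of 2.69, and the circles lie near it at a median ratio of 0.884, with Arg1 farthest below it.

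Per kilobase of exon the order of the leading members was nearly the same in the macrophage-rich libraries. In BAT FAP replicate 1, Lyz2 led with 1923 CPM per kilobase, followed by Spp1 (1779), Ctss (583), C1qb (415) and Cd68 (293). BAT satellite cell replicate 4 had Spp1 first (1074 CPM per kilobase) and Lyz2 next (804), then also Ctss (214), C1qb (159.5) and Cd68 (120.1). Cd163, the haemoglobin scavenger receptor, was last of the 32 in both, at 0.379 and 0.161 CPM per kilobase.

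Other genes of the lineage went with the members. PU.1 itself (Spi1) was at 18.9, 7.84 and 7.29 CPM in BAT FAP replicate 1, BAT satellite cell replicate 4 and control satellite cell replicate 3, and at most 0.669 CPM in the other 29 libraries. A list of 24 further macrophage genes summed to 975, 401 and 367 CPM, with 20 of 24 at 1 CPM or more in each, against 5.21 to 61.9 CPM in the other 29. Of its members Folr2, a receptor of resident macrophages, reached 31.7, 11.5 and 13.2 CPM, while Timd4, Vsig4 and Marco were at most 0.119 CPM in all 3. The 14 genes of the kinase pathway downstream of Tyrobp and Fcer1g summed to 313, 131 and 125 CPM, against 16.1 to 52.35 CPM elsewhere.

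Class II and dendritic cell genes summed to 867, 383 and 313 CPM in the 3 libraries, and to 3.24 to 61.4 CPM in the other 29, with Cd74 at 501, 237 and 181.5 CPM. The 10 genes outside the set whose log2(CPM + 1) followed the mean of the members most closely over the 32 libraries were Igsf6, C3ar1, Bcl2a1b, Ms4a4a, Ms4a7, Ms4a6c, Cd84, Fcrls, Cd53 and Cd300c2. Their r was 0.983 to 0.990 over 32 libraries of 14519 genes ranked, and 0.826 to 0.935 over the 29 that are not macrophage-rich. C3ar1, the receptor of complement fragment C3a, was at 130, 49.1 and 47.5 CPM in the 3 libraries and at most 4.20 CPM elsewhere.

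Markers of other cell types differed among the macrophage-rich libraries. The neutrophil list summed to 227 CPM in control satellite cell replicate 3, with 11 of 13 genes at 1 CPM or more, and to 57.2 and 19.4 CPM in BAT FAP replicate 1 and BAT satellite cell replicate 4. The other day 3 libraries held 2.18 to 4.50 CPM in satellite cells and 15.3 to 24.1 CPM in FAPs, so that all 3 were above their own kind. In BAT FAP replicate 1 the highest of the list were Mmp9 (17.6 CPM), Csf3r (12.2 CPM) and Mmp8 (10.3 CPM). The granule genes Ltf and Elane were at 0.509 and 0.0364 CPM in that FAP library. Granule genes of immature neutrophils set control satellite cell replicate 3 apart: Ngp was at 78.05 CPM there and at most 0.237 CPM in the 31 others, Ltf at 18.9 CPM and Elane at 11.0 CPM. Ly6g, a surface marker of mature neutrophils, was at 0.357 CPM there and at 0 in the 2 others.

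The lymphocyte list summed to 16.2, 6.825 and 6.775 CPM in the 3 libraries, in the order used above, mostly from Il7r (13.2, 5.68 and 4.755 CPM), with Cd3e at 0.0792 CPM or less. Endothelial genes summed to 39.4, 17.2 and 20.4 CPM, against 7.03 to 12.5 CPM in the other 6 satellite cell libraries of day 3 and 12.0 to 20.8 CPM in the other 7 of FAPs, so that all 3 were above their own kind. Both satellite cell libraries also held more FAP transcripts than most of their group: the FAP list summed to 3186 CPM in BAT replicate 4 and 1327 CPM in control replicate 3, with a median of 377 CPM and a highest value of 1985 CPM in the other 6. In BAT FAP replicate 1 the satellite cell list summed to 508 CPM, and in the other 7 day 3 libraries of FAPs it was 205 to 391 CPM. The part of these markers in the results was not tested.

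At 1 CPM the members fell into 4 kinds, with the caution that the 3 libraries had been singled out by the members themselves. Clec4n, Ccr2, Aif1 and Retnla reached 1 CPM only in macrophage-rich libraries, Retnla in 1 of the 3. Mgl2 was at 1 CPM or more in all 16 satellite cell libraries, and Cd14, Lyz2, Spp1 and Gpnmb in all 32. The other 23 reached 1 CPM in the macrophage-rich libraries and in 1 to 26 of the other 29, from Fcgr1 and Arg1 (1 library each) to Cd68 (26 libraries). Of these, Cd163 reached 1 CPM in 2 of the 3. The counts move with the threshold: 1 member was confined at 0.5 CPM and 18 at 5 CPM.

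**Figure D4:**
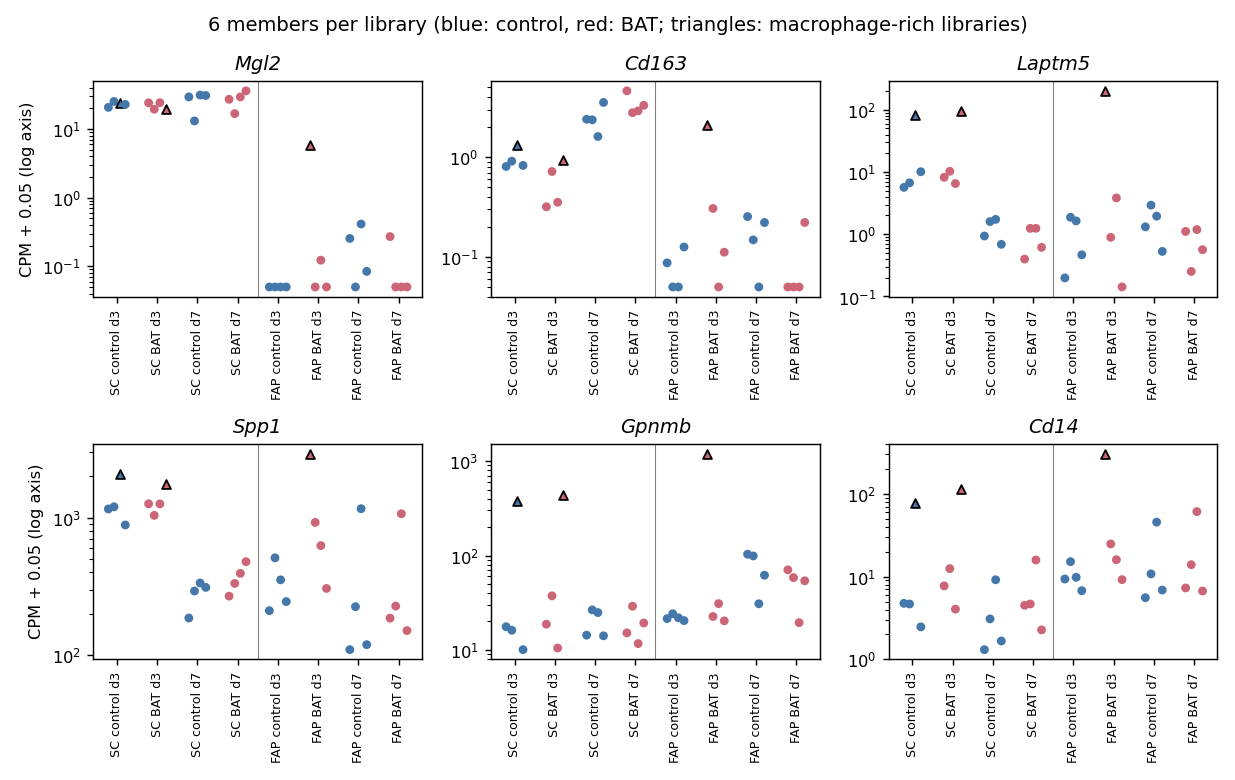
Level of Mgl2, Cd163, Laptm5, Spp1, Gpnmb and Cd14 in each library (CPM + 0.05, log axis), by group; blue is control, red is BAT, and triangles mark the 3 macrophage-rich libraries. Mgl2 fills all satellite cell groups at 13.02 to 35.8 CPM and is at most 0.363 CPM in FAPs other than the triangle at 5.84 CPM, whereas Spp1, Gpnmb and Cd14 are in both cell types.

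Mgl2 (chr11:70130329-70137550), a galactose-binding lectin known from alternatively activated macrophages and dendritic cells, was a satellite cell transcript in these data. In control satellite cells it was at 20.6, 25.1, 23.5 and 22.7 CPM (replicates 1 to 4) at day 3 and at 29.3, 13.02, 31.1 and 30.65 CPM at day 7. With BAT it was at 23.95, 19.3, 24.1 and 19.5 CPM at day 3 and at 27.0, 16.7, 29.2 and 35.8 CPM at day 7. Control FAPs of day 3 had 0 counts in all 4 libraries, and those of day 7 0 to 0.363 CPM.

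The macrophage-rich libraries did not stand out for Mgl2 in satellite cells, at 23.5 and 19.5 CPM, while BAT FAP replicate 1 was the only FAP library above 0.363 CPM, at 5.84 CPM. Against control FAPs of day 3, Mgl2 was at least 799-fold higher in control satellite cells (pooled rates, floor of 3 counts over the group, edgeR quasi-likelihood test with mouse block, adjusted p = 3.24e-05). At day 7 the log2 difference was 7.19 ± 0.52 (SE, adjusted p = 8.72e-05). The groups did not overlap on either day. Between days in control satellite cells Mgl2 was not called (log2 difference -0.20 ± 0.23, adjusted p = 0.479).

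Cd163 was the other member with a satellite cell pattern, at a low level. In control satellite cells it was at 0.7575, 0.8625, 1.27 and 0.777 CPM at day 3 and at 2.35, 2.32, 1.56 and 3.49 CPM at day 7. In BAT satellite cells of day 7 it was at 2.75 to 4.58 CPM. FAP libraries other than BAT replicate 1 of day 3 (2.07 CPM) were at 0 to 0.256 CPM.

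Cd163 was higher in control satellite cells than in control FAPs on both days. At day 3 the FAP group held 3 counts, and the ratio of pooled rates was 31.2 (95% exact interval 10.4 to 153, counting error only; edgeR adjusted p = 4.80e-04). At day 7 the log2 difference was 3.99 ± 0.59 (adjusted p = 0.00156). It was also the one member that rose from day 3 to day 7 in control satellite cells, by a log2 difference of 1.04 ± 0.31 (adjusted p = 0.0151), and the 4 libraries of each day did not overlap.

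Laptm5, a lysosomal membrane protein of blood cells (chr4:130913125-130936141), was in satellite cells of day 3 also outside the macrophage-rich libraries. Control satellite cells of day 3 were at 5.61, 6.64, 82.8 and 10.05 CPM, and BAT ones at 8.16, 10.2, 6.47 and 95.5 CPM. At day 7 all 8 satellite cell libraries were at 0.349 to 1.68 CPM. FAP libraries were at 0.0923 to 3.78 CPM, other than BAT replicate 1 of day 3 at 201 CPM.

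In the BAT libraries the order of Laptm5 was that of Lyz2, with replicate 3 lowest in both (6.47 and 2.58 CPM). In the controls it was not: replicate 4 had the lowest Lyz2 (1.60 CPM) and the next to highest Laptm5 (10.05 CPM). Laptm5 was higher in control satellite cells than in control FAPs at day 3 (log2 difference 3.75 ± 1.02, adjusted p = 0.0135; without the macrophage-rich library 2.59 ± 0.55, adjusted p = 0.00119). Alox5ap showed a like order in satellite cells, at 2.42 to 3.28 CPM in the 3 other control libraries of day 3 and at 0.307 to 0.882 CPM in those of day 7.

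Spp1 (chr5:104435118-104441050), a secreted ligand of integrins and CD44, was the most abundant member outside the macrophage-rich libraries. In control satellite cells of day 3 it was at 1158, 1200, 2090 and 885 CPM, and in BAT ones at 1263, 1040, 1260 and 1770 CPM. At day 7 satellite cells were at 186 to 335 CPM in control and at 269 to 478.5 CPM with BAT. Control FAPs of day 3 were at 211, 510, 353 and 245 CPM.

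In FAPs of day 7 a single mouse set the range of Spp1. Control FAPs were at 109.5, 225, 1163 and 119 CPM and BAT FAPs at 186, 227.5, 1069 and 151 CPM, the highest in both being replicate 3, from the mouse with Xist. Cd14 was highest in the same 2 libraries, at 45.4 and 60.8 CPM against 5.51 to 13.9 CPM in the other 6. Gpnmb was lowest there, at 30.8 and 19.4 CPM against 53.9 to 103 CPM. Satellite cells of that mouse had the highest Lyz2 of their groups, at 44.6 CPM in control and 26.3 CPM with BAT, against 1.23 to 5.44 CPM in the other 6.

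Spp1 was higher in control satellite cells (1333 ± 523 CPM, SD, n = 4) than in control FAPs (330 ± 135 CPM, n = 4) at day 3, with a log2 difference of 1.90 ± 0.30 (adjusted p = 0.00103), and the groups did not overlap. At day 7 it was not called (-0.19 ± 0.49, adjusted p = 0.777).

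Gpnmb (chr6:49036546-49070929), a lysosomal glycoprotein of lipid-laden and repair macrophages, was also a FAP transcript. Control FAPs were at 21.4, 24.1, 21.8 and 20.4 CPM at day 3 and at 103, 98.9, 30.8 and 61.8 CPM at day 7. The 2 days did not overlap, and Gpnmb was the single member called between days in control FAPs, with a log2 difference of 1.83 ± 0.34 (adjusted p = 0.00579). In this comparison 20 members passed the filter on low counts, which asks for about 10 counts in 4 libraries, and of all 16144 genes tested 11.5% were called higher and 11.4% lower at day 7. Satellite cells outside the macrophage-rich libraries were at 10.0 to 37.3 CPM for Gpnmb on both days.

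Between the cell types of control muscle, 4 of the 22 members tested at day 3 were called, all higher in satellite cells: Mgl2, Cd163, Laptm5 and Spp1. Over all 16329 genes tested, 35.8% were called higher and 35.9% lower in satellite cells, so that 4 of 22 is below the share of the table. The median log2 difference was 1.38 over the members tested and 0.03 over all genes. The 10 members that did not pass the filter were untested.

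Without control satellite cell replicate 3, 10 of 23 members were called. The median log2 difference over the 23 then turned to -0.26, with 9 above 0, and that over all genes was 0.02. Replicate 3 was left out because its member levels were high, which by itself moves the members towards lower values in satellite cells. The median and the calls below are thus not independent of that choice. The 4 above were again higher (all genes 34.5%), and 6 were lower in satellite cells (all genes 35.4%): Csf1r (-1.75 ± 0.35), Cd14 (-1.67 ± 0.20), Ly6c2 (-5.18 ± 0.80), Lyz2 (-0.80 ± 0.21), Gpnmb (-0.78 ± 0.14) and Arg1 (-2.96 ± 0.71). For all of these but Lyz2 the 3 remaining satellite cell and the 4 FAP libraries did not overlap. Overlap was read for members only, so the share of all genes without it is not known. Beside them at day 3, with all libraries, of the chemokines that draw monocytes 5 of 8 tested were lower in satellite cells (all genes 35.9%) and 0 higher (all genes 35.8%), with Ccl2 at -6.94 ± 0.66 and Ccl7 at -7.11 ± 0.72, and of 20 lysosome and lipid genes 12 were lower and 3 higher.

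The leukotriene list had 2 of 3 tested genes higher in satellite cells at day 3, where 35.8% of all genes were. Alox5, the 5-lipoxygenase that Alox5ap serves, was at 8.32 to 13.3 CPM in control satellite cells and at most 0.0372 CPM in control FAPs (edgeR adjusted p = 4.19e-06). Of the further macrophage genes 3 of 11 were higher, below that share, and 0 lower: Siglec1 (2.94 ± 0.21), Slc11a1 (2.78 ± 0.36) and Cd300a (4.04 ± 1.20). Csf1, the ligand of Csf1r, was lower in satellite cells (-2.88 ± 0.14).

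At day 7, 9 of 20 members tested were called between the cell types of control muscle. Mgl2 and Cd163 were higher in satellite cells (all 16969 genes 22.5%). Lower were 7 (all genes 22.6%): Cd14 (-2.51 ± 0.18), Gpnmb (-2.24 ± 0.39), Lyz2 (-1.73 ± 0.49), Csf1r (-1.72 ± 0.47), Cx3cr1 (-1.82 ± 0.53), Alox5ap (-1.57 ± 0.43) and Ly6c2. Ly6c2 had 3 counts in the 4 satellite cell libraries, and the ratio of pooled rates in favour of FAPs was 39.9 (95% exact interval 13.3 to 196, counting error only). The libraries did not overlap for Mgl2, Cd163, Gpnmb, Alox5ap and Ly6c2 and overlapped for Cd14, Lyz2, Csf1r and Cx3cr1. Over all genes overlap was not counted. Without the mouse coded 1a 5 members were called. The median over members was -1.24 and that over all genes 0.05.

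From day 3 to day 7 in control satellite cells, 17 of 20 members tested were called, 1 higher (all 16597 genes 29.7%) and 16 lower (all genes 29.8%). The median log2 difference was -4.47 over the members and 0.03 over all genes. The days differ in mice and in the deposited table, so that day, mice and table cannot be told apart. Lower at day 7 were the surface genes Adgre1 (-5.28 ± 1.77) and Csf1r (-3.41 ± 1.24), 4 receptors and adaptors with Tyrobp at -4.44 ± 1.50, all 3 C1q chains with C1qb at -4.67 ± 1.63, Cx3cr1, Ctss, Cd68, Laptm5, Spp1, Gpnmb and Alox5ap.

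Most of these calls were lost without control satellite cell replicate 3, again a library chosen for its member levels, when 5 of 20 members were called. Leaving out the day 7 library of mouse 1a, 1b or 3 gave 5, 5 and 6 calls. Cd163 was higher by 1.20 ± 0.35 (all 17190 genes 28.8%), and 4 were lower (all genes 27.7%): Laptm5 (-2.99 ± 0.37), Alox5ap (-2.80 ± 0.42), Cx3cr1 (-2.36 ± 0.52) and Spp1 (-2.34 ± 0.23). For these 5 the libraries of the 2 days did not overlap, with or without that library, but overlap was not counted over all genes. The counts of Cx3cr1 are uncertain, since its gene model overlaps other genes. The median over the 20 members moved from -4.47 to -0.84, Gpnmb turned to 0.06 ± 0.32 and Tyrobp to -1.35 ± 0.96, which was not called.

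**Figure D5:**
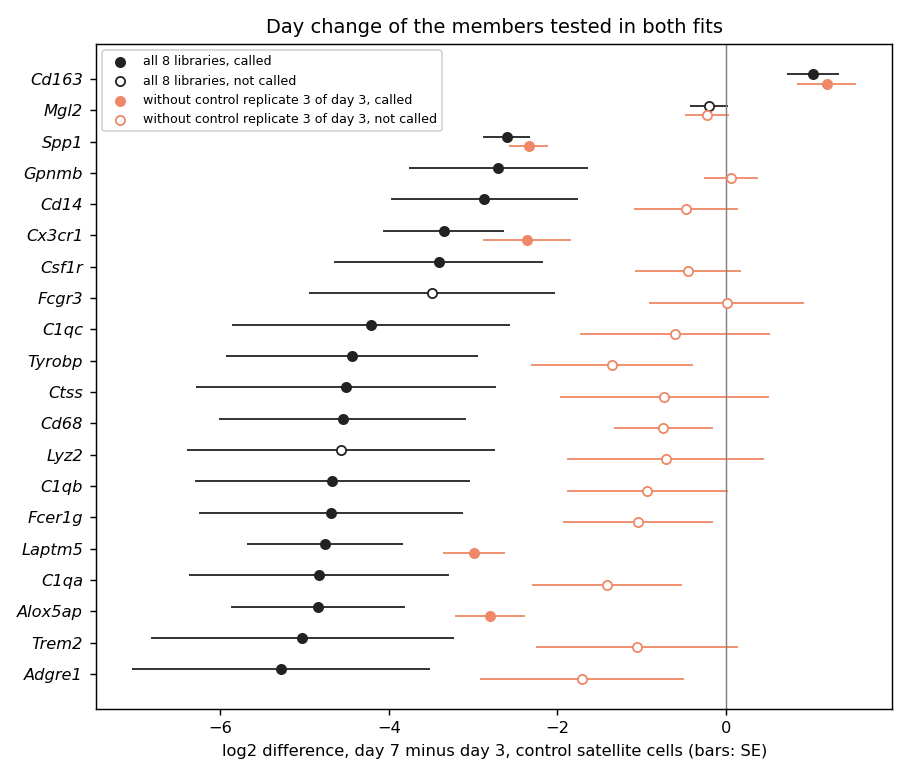
Log2 difference between day 7 and day 3 in control satellite cells for 20 members (bars are SE), with all 8 libraries (black) and without control replicate 3 of day 3 (orange); filled points were called at an adjusted p under 0.05. Without that library the points of 18 members move towards 0, those of Cd163 and Mgl2 do not, and Cd163, Spp1, Cx3cr1, Laptm5 and Alox5ap stay filled.

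The difference of the day changes between cell types was tested in control muscle. Of 27 members tested 2 were called, both with a lower day change in satellite cells (all 18069 genes 8.39%): Laptm5 (-4.56 ± 1.26, adjusted p = 0.0265) and Cx3cr1 (-3.19 ± 0.83, adjusted p = 0.0208). Without the macrophage-rich library both were called again, joined by Alox5ap (-2.33 ± 0.56, adjusted p = 0.0176; all 18542 genes 6.68%). These calls rest on few mice: without mouse 2b 0 members were called, and without the day 7 mouse 1b or 3 a single one each. The Cx3cr1 call also rests on uncertain counts, since its gene model overlaps other genes, among them Xirp1. Spp1 missed the threshold in both fits (adjusted p = 0.0510 and 0.0903), which does not show that its day changes were alike.

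The question of the transplant was put to each cell type and day. With edgeR, all libraries and the filter on low counts, no member passed in any of the 4 comparisons. In satellite cells at day 3, 0 of 26 members tested were called, as 0% of all 15631 genes were, and no member had an unadjusted p under 0.05. The sum was higher with BAT in 3 of 4 mice, by 3633, 140 and 17.1 CPM, and it fell below control (-3258 CPM) in the mouse whose control library was macrophage-rich. Of the 32 members 31 were higher with BAT in the mouse of BAT replicate 4 and 1 in the mouse of control replicate 3. In the 2 mice with no macrophage-rich satellite cell library, 24 (mouse 3a) and 29 (mouse 3b) were higher with BAT. Without the 2 macrophage-rich libraries, 0 of 21 members were called (all 15677 genes 0.0128%). Of the 21, 13 had an unadjusted p under 0.05, as had 664 of all 15677 genes. Both libraries were left out because their member levels were high, so these p values are not independent of that choice. That fit holds 2 mice with both muscles and 2 with 1 muscle each. Its smallest p values were those of Lyz2 (1.37 ± 0.26) and C1qb (1.50 ± 0.28), both higher with BAT (adjusted p = 0.143 each). Other lists had positive values too in that fit: the median log2 difference was 1.70 over 8 FAP markers, 4 of them with an unadjusted p under 0.05, and 1.68 over 6 chemokines, 5 of them so, with 0 called. BAT satellite cell replicate 2 held 1985 CPM of the FAP list, against 293 to 426 CPM in the other 5 libraries of the fit, and the part of these markers was not tested.

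In FAPs at day 3, 0 of 23 members were called (all 15948 genes 0.0188%), 4 with an unadjusted p under 0.05 (730 of all genes). The median log2 difference was 2.12 over these members and -0.01 over all genes. Without BAT FAP replicate 1, a library chosen for its member levels, the median over the 23 members tested was 0.34, with 17 above 0. The sum was higher with BAT in 4 of 4 mice, by 9758, 421, 337 and 63.9 CPM, the first being the mouse of the macrophage-rich library. Spp1 made up most of it in the other 3 mice, but not in that one: from control to BAT, in the order of replicates 1 to 4, it went from 211 to 2931 CPM, from 510 to 924 CPM, from 353 to 627 CPM and from 245 to 305.5 CPM.

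Spp1 was higher with BAT in all 4 mice by 1.37 ± 0.54 on the log2 scale and was not called (adjusted p = 0.957). Without BAT FAP replicate 1 it was called, at 0.68 ± 0.11 (edgeR adjusted p = 0.0195, higher in 3 of 3 mice with both libraries), the single member of 23 tested and among 0.160% of all 16243 genes. That library was left out because its member levels were high, Spp1 among them, so the call is not independent of that choice. The control library of the same mouse stayed in the fit without its pair. No gene of the other macrophage lists was called in FAPs at day 3 in either fit. Fitted with all libraries, Trem2 was at 4.13 ± 1.48, Mrc1 at 4.38 ± 1.19 and Cx3cr1 at 1.98 ± 0.73 (adjusted p = 0.957 each).

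At day 7 no member was called between BAT and control with the filter on low counts, which does not show that levels were alike. In satellite cells 0 of 14 were called (all 16868 genes 0.0178%), with 2 at an unadjusted p under 0.05 (1261 of all genes). Those were Spp1, at 0.41 ± 0.11, from 186 to 269, 293 to 332, 335 to 393 and 311 to 478.5 CPM, and Cd14, at 0.93 ± 0.25, from 1.26 to 4.45, 3.03 to 4.62, 9.10 to 15.8 and 1.62 to 2.22 CPM (adjusted p = 0.626 each). Both were higher with BAT in 4 of 4 mice while the groups overlapped.

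In FAPs at day 7, 0 of 17 members were called, as 0% of all 16021 genes were. Gpnmb was lower with BAT in 4 of 4 mice, from 103 to 70.5, 98.9 to 58.3, 30.8 to 19.4 and 61.8 to 53.9 CPM, a log2 difference of -0.53 ± 0.11 (adjusted p = 0.953, unadjusted p = 0.00119). Cd14 was at 0.31 ± 0.13 (adjusted p = 0.953). The median over the 17 members was -0.26 and that over all genes -0.01. DESeq2 called 0 members in each of the 4 comparisons of BAT with control.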

How the data were processed

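RNA was sequenced from sorted satellite cells and FAPs, 32 libraries in 8 groups of 4. The authors deposited a table per day of expected counts per gene, with DRAGEN and mm10 named per the submitters' processing notes; other settings were not given in the sources used here. Of 55774 entries, 287 identical repeats were dropped. Expected counts were rounded to whole numbers. Libraries were made from 10 ng RNA with an ultra-low input kit, per the labels.

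Comparisons used edgeR 4.0.16 (R 4.3.3) quasi-likelihood F tests with TMM scaling, filterByExpr (minimum count 10, minimum total 15) and Benjamini-Hochberg adjustment over all genes tested, called at an adjusted p under 0.05. The model was tested on simulated data. SE is the log2 difference divided by the square root of F. Tests within a day had the mouse as a block. The labels' mouse codes give the pairing, and taking the libraries without a code as 1 mouse is an inference. Deviations of paired libraries correlated with a mean r of 0.031, 0.488, 0.185 and 0.644 (satellite cells at day 3 and day 7, FAPs at day 3 and day 7). The p-values measure the spread between these samples. No pair of libraries within a group agreed within counting noise.

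All 32 members are named, list genes by smallest adjusted p, and likeness by correlation of log2(CPM + 1). Members and lists were chosen with earlier results of these data known. Gene models are GENCODE M21. Alternatives were DESeq2 1.42.0, RLE scaling, no filter, no block, each mouse left out, and the macrophage-rich libraries left out.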

Additional observations from a re-analysis of the deposited data

Results flagged for a closer look

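In groups of 4, a library was marked when its gap to the nearest other, as a share of the group's range, exceeded Dixon's 95% critical value, which chance gives in about 1 of 20 groups. The summed level of the members was marked for control satellite cell replicate 3 (4574 CPM), BAT satellite cell replicate 4 (4575 CPM) and BAT FAP replicate 1 (10015 CPM) at day 3. At day 7 it was marked for replicate 3 of control FAPs (1313 CPM) and of BAT FAPs (1201 CPM), both from the mouse with Xist, where Spp1 made up most of the sum.

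Single members were marked in the same libraries. At day 3 a library stood apart for 29 of 32 members in control satellite cells, always replicate 3, for 25 in BAT satellite cells, always replicate 4, and for 30 in BAT FAPs, always replicate 1. Control FAPs of day 3 had 2 such members, Retnla and Cybb. At day 7 the numbers were 14 in control satellite cells (13 of them replicate 3, and Mgl2 in replicate 2), 8 in BAT satellite cells (all replicate 3), 7 in control FAPs (6 of them replicate 3) and 10 in BAT FAPs (7 of them replicate 3). Where the other 3 libraries have 0 counts, any count is marked and the rate of 1 in 20 does not hold. That applies to 4, 2, 3 and 3 of these members at day 7, in the order given, and at day 3 to Retnla in control satellite cells, control FAPs and BAT FAPs.

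The change from day 3 to day 7 in control muscle differed between the cell types by the interaction test for Laptm5 (-4.56 on the log2 scale) and Cx3cr1 (-3.19), both lower in satellite cells. The counts of Cx3cr1 are uncertain, since its gene model overlaps other genes.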

How the results depend on the processing

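Without the low-count filter 2 of 32 members were called between BAT and control in satellite cells at day 7 (206 of all 30818 genes). In FAPs 2 of 32 were called at day 3 (63 of 30326 genes) and 1 of 32 at day 7 (145 of 30117 genes). Leaving the filter out moved the day comparison of satellite cells from 17 of 20 to 26 of 32 calls (10189 of 31024 genes). The difference of day changes moved from 2 of 27 to 5 of 32 calls (3855 of 33528 genes). DESeq2 gave 3 calls between days in satellite cells, where 5 members had an adjusted p (10519 of all 22082 genes called). For the difference of day changes it called 6 of 31 members (5074 of 18465 genes). Without the macrophage-rich libraries 1 of 23 members was called for BAT in FAPs at day 3 (26 of 16243 genes). Between cell types at day 3 it was 10 of 23 (11735 of 16781 genes). Between days in satellite cells it was 5 of 20 (9710 of 17190 genes). Leaving out each mouse in turn gave 0 to 1 calls for BAT in FAPs at day 3, 3 to 11 and 5 to 8 between cell types at day 3 and day 7, 5 to 20 between days in satellite cells, and 0 to 4 for the difference of day changes. These fits tested 18 to 29 members and 15938 to 18507 genes each. Over all genes they called 0 to 27, 10551 to 11566, 5585 to 6807, 8951 to 10307 and 2988 to 4291, in that order. The cause was not tested.

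The mouse block pairs the muscles and cell types of a mouse. Without it 14 of 22 members were called between cell types at day 3 (11246 of 16329 genes). At day 7 it was 7 of 20 (6562 of 16969 genes). For the difference of day changes it was 6 of 27 (3197 of 18069 genes). In each BAT comparison 0 members were called, as 0 of all genes were. At day 3 a replicate number names different mice in satellite cells and FAPs. With a replicate block by number, the day comparison had 17 of 20 calls in satellite cells (8839 of 16597 genes). In FAPs it was 1 of 20 (2680 of 16144 genes). Between days the numbers mark different mice.

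Between cell types at day 3 the sign turned without the block for Csf1r (1.51), Cd14 (0.95) and Arg1 (1.19), and in DESeq2 for Fcgr3 (-0.12). Without the macrophage-rich library it turned for Adgre1 (-0.26), Fcer1g (-0.33), Fcgr3 (-1.05), C1qb (-0.28), Lyz2 (-0.80), Ctss (-0.12), Cd68 (-0.13) and Gpnmb (-0.78). With each mouse left out, the ranges were -0.27 to 2.85 for Adgre1, -1.76 to 0.17 for Csf1r, -0.34 to 2.44 for Fcer1g, -1.06 to 1.19 for Fcgr3, -0.29 to 2.60 for C1qb, -0.80 to 1.10 for Lyz2, -0.13 to 2.79 for Ctss, -0.14 to 2.44 for Cd68, -0.79 to 0.74 for Gpnmb and -2.97 to 0.05 for Arg1. Between days in satellite cells Fcgr3 turned to 0.01 and Gpnmb to 0.06 without that library, and their ranges were -4.78 to 0.01 and -3.10 to 0.06.

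Without the 4 members found in every library the mean sums were 360.8 CPM in BAT satellite cells at day 3, 44.32 and 43.91 CPM in control and BAT satellite cells at day 7, 21.3 CPM in control FAPs at day 3 and 17.28 CPM in BAT FAPs at day 7. At 0.5 CPM 1 member was confined to the macrophage-rich libraries and 2 were in all FAP libraries only; at 5 CPM these were 18 and 1, with 10 intermittent and 2 in every library. Depth limits members under about 0.152 CPM.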

Other observations

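Other genes tied to the lineage changed between days in control FAPs, where a single member did. Of all genes tested 11.5% were called higher and 11.4% lower in that comparison (edgeR). Of 10 macrophage transcription factors tested 3 rose from day 3 to day 7 and 0 fell, with Irf8 at 1.90 ± 0.22 on the log2 scale (SE) and Mitf at 1.29 ± 0.21. Of 7 dendritic and class II genes 3 rose, with the invariant chain Cd74 at 2.23 ± 0.50, and of 20 lysosome and lipid genes 9 rose and 1 fell, with Apoe at 2.51 ± 0.35. In control satellite cells Irf8 also rose (2.45 ± 0.70, and 3.90 ± 0.37 without the macrophage-rich library). The leukotriene genes Ltc4s (-2.60 ± 0.23) and Alox5 (-1.49 ± 0.33) fell there, where 29.7% of all genes were called higher and 29.8% lower. The sum of the 5 leukotriene genes did not fall. In satellite cells outside the macrophage-rich libraries, control and BAT together, its median was 121 CPM at day 3 and 172.5 CPM at day 7.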
